A study of Drosophila melanogaster with 11 samples.

Results

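Gene expression in wing imaginal discs was compared between dCap-D3 mutant and wild-type larvae of Drosophila melanogaster, across all genes of a count table of the authors. The comparison used 5 of the 11 libraries of the series, chosen by their tissue and genotype labels. They were 3 libraries from wild-type discs (w1118) and 2 from discs homozygous for the c07081 allele of dCap-D3 (w;dCap-D3c07081/c07081), so that every disc also carried a mutant background at the white locus. The other 6 libraries came from salivary glands, 3 of each genotype, and serve here only to ask whether a change in the disc differed from that in another tissue. Larvae were in the 3rd instar, stocks were kept at 25 C, and each wing library was made from 150 pooled discs. Each genotype was 1 strain, so the allele cannot be told apart from other differences between the strains. The labels do not say whether the pools came from separate cultures, and p-values measure only the spread between these samples. The symbol of the gene in the files is Cap-D3.

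Cap-D3 is a HEAT-repeat subunit that, together with Cap-H2 and the ATPases SMC2 and SMC4 (glu in the fly), forms condensin II, a ring complex that folds chromosomes. In flies condensin II is known for keeping homologous chromosomes apart and for dispersing the polytene chromosomes of large secretory cells. The wing disc is an epithelial sac of mostly diploid, dividing cells that is set aside in the embryo, is patterned in the larva by Hedgehog, Dpp, Wingless, EGFR and Notch signals, and becomes the adult wing and notum. Muscle precursors and a branch of the trachea lie against it, and cells of the blood and fat body can stay attached when it is dissected.

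Wild-type replicates 1, 2 and 3 held 61533957, 65095670 and 157639957 counts, and mutant replicates 1 and 2 held 64839792 and 59495487. Levels are given as CPM, which are counts relative to a library size adjusted by the trimmed mean of M-values, and 3 counts in a library, the limit that a count of 0 allows, equal 0.0176 to 0.0519 CPM. Of the genes in the table, 9689 had enough counts to be tested. Markers of the wing disc were read in all samples, beside markers of other tissue. Per kilobase of exon, the wing selector gene vg stood at 15.1 to 34.1 CPM in the 5 libraries, and nub, ap, sd and rn, which also mark the wing field or its dorsal part, at 7.68 to 70.4 CPM. On the same scale the fat body genes Lsp2 and Fbp1 stood at 161 to 1671 and 91.0 to 1257 CPM, both highest in wild-type replicate 2.

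The first check was the targeted gene. Cap-D3 (FBgn0051989, 2L:5525905-5535958, build BDGP6) had 1072, 785 and 4398 counts in wild-type replicates 1 to 3 and 189 and 151 counts in the mutants, which is 17.1, 12.9 and 25.9 CPM against 2.93 and 2.61 CPM. Both mutants lay below every wild-type library, in keeping with the labels. The log2 fold change (mutant over wild type, ± standard error) was -2.75 ± 0.38 with an adjusted p of 0.0916, so Cap-D3 itself did not pass the threshold of 0.05 in edgeR's quasi-likelihood test. With a correction for gene span, described below, the value was -2.62 and the adjusted p 0.00406, and DESeq2 gave -2.78 with an adjusted p of 2.88e-09. In the authors' deposited table the log2 fold change of Cap-D3 is -2.602 with a false discovery rate of 1.997e-23. The 6 other condensin subunits tested, SMC2, glu, Cap-G, Cap-D2, barr and Cap-H2, had overlapping CPM ranges and log2 fold changes between -0.38 and 0.07. Around Cap-D3, 0 of the 11 tested genes within 50 kb passed the quasi-likelihood test, against 1 at an unadjusted p under 0.05 and 1 each by DESeq2 and edgeR's likelihood ratio test.

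The wild-type libraries differed from each other more than the mutant libraries did, and the difference followed gene length. At 23.7% of the tested genes wild-type replicates 2 and 3 were at least 2-fold apart, against 6.01% for replicates 1 and 2, 7.84% for replicates 1 and 3, and 0.619% for the 2 mutants. Wild-type replicate 1 was closer to the mutants (3.47% and 3.32% of genes 2-fold apart) than to either of the other wild-type libraries. Among 7388 genes with at least 1 CPM in all 5 libraries, the shortest decile (spans of 72 to 1029 bp) stood at a median log2 value, relative to the wild-type mean, of 0.14, 0.45 and -0.59 in wild-type replicates 1 to 3 and of 0.07 and 0.11 in the mutants. The longest decile (17674 to 396036 bp) stood at -0.08, -0.69 and 0.76 in wild type and at -0.09 and -0.14 in the mutants. The tilt thus ran in opposite directions in wild-type replicates 2 and 3 and was small in the other 3 libraries.

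Single genes mostly followed this. Among short genes RpL41, a ribosomal protein gene, read 5394, 8570 and 2269 CPM in wild type and 5426 and 5708 CPM in the mutants, and RpLP2, another, read 4737, 7365 and 2223 CPM against 5031 and 5503 CPM. Cht3, a chitinase gene and 1 of the 2 most abundant long genes, read 536, 395 and 1592 CPM against 673 and 639 CPM. In each of these 3 genes wild-type replicates 2 and 3 lay on either side of all other libraries. Cam, the calmodulin gene and the other of the 2 long genes, did not follow it, with 680, 495 and 518 CPM against 677 and 662 CPM, replicates 2 and 3 both being low. A fitted offset per library that follows gene span lowered the biological coefficient of variation from 0.374 to 0.296. It took the median log2 fold change of the longest decile by span from -0.26 to -0.02. By exon length the tilt was larger, with the longest decile (exons of 5882 to 71820 bp) at -0.16, -0.82 and 0.97 in wild type and -0.19 and -0.25 in the mutants, and the span correction took its median log2 fold change from -0.42 only to -0.18. Span and exon length rise together, and which of them the difference follows was not tested. The wing libraries are numbered 28, 29 and 59 in wild type and 30 and 31 in the mutant, and wild-type replicate 3 is number 59. The sources used here do not say whether it shared a preparation or a sequencing run with the others.

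**Figure D1:**
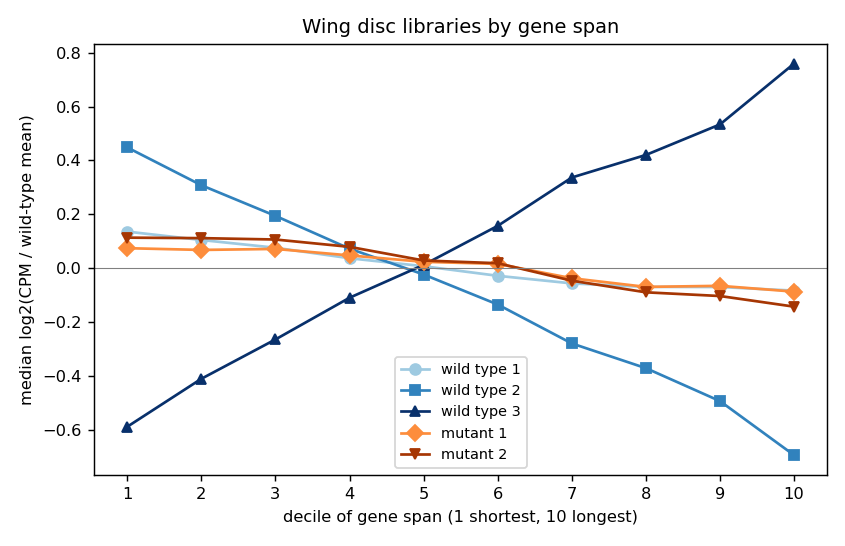
Median log2 ratio of CPM to the wild-type mean (vertical axis) in each wing disc library for deciles of 7388 genes ordered by span (horizontal axis, 1 shortest, 10 longest). Wild-type replicate 2 runs from 0.45 down to -0.69 and replicate 3 from -0.59 up to 0.76, while wild-type replicate 1 and both mutants stay between -0.14 and 0.14.

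Against that spread, 46 of the 9689 genes differed between the genotypes by the quasi-likelihood test (0.475%), 30 higher in the mutant (0.31%) and 16 lower (0.165%). The changes were large. All 46 were at least 2-fold, 37 were at least 8-fold in the fitted value, and in all 46 the mutants lay outside the wild-type range, against 14.4% of all tested genes with both mutants above and 11.7% with both below the wild type. Many went between almost no reads and a clear level. Of the genes that rose, 14 lay under 0.25 CPM in every wild-type library and had a mutant mean of at least 2 CPM. The reverse held for 5 of the genes that fell. Genes with an annotated protein numbered 39, with 6 noncoding RNAs and 1 pseudogene, and 17 of the 46 overlap a gene on the opposite strand. The labels describe the wing libraries as directional but not how strand was used in counting, so reads in such overlaps cannot be assigned with certainty.

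The number of calls and the set of called genes depended on the test and on single libraries. With the span correction 118 genes passed (1.22%), 70 higher (0.722%) and 48 lower (0.495%), and 44 of them were among the 46. DESeq2 called 583 (6.02%), 253 higher (2.61%) and 330 lower (3.41%), edgeR's likelihood ratio test called 464 (4.79%), and both included all 46. Leaving out wild-type replicate 2 left 30 calls and leaving out replicate 3 left 45, 28 and 30 of them shared with the 46, but without wild-type replicate 1, mutant replicate 1 or mutant replicate 2 there were 0 calls, with 805, 432 and 395 genes at an unadjusted p under 0.05. At an unadjusted p under 0.05 the full comparison had 924 genes (9.54%). The authors' deposited table lists 1224 genes at a false discovery rate under 0.05 and at least 2-fold, 404 up and 820 down, and holds all 46. Of the 957 of these that were tested here, 25 up and 92 down have CPM ranges that overlap between the genotypes.

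**Figure D2:**
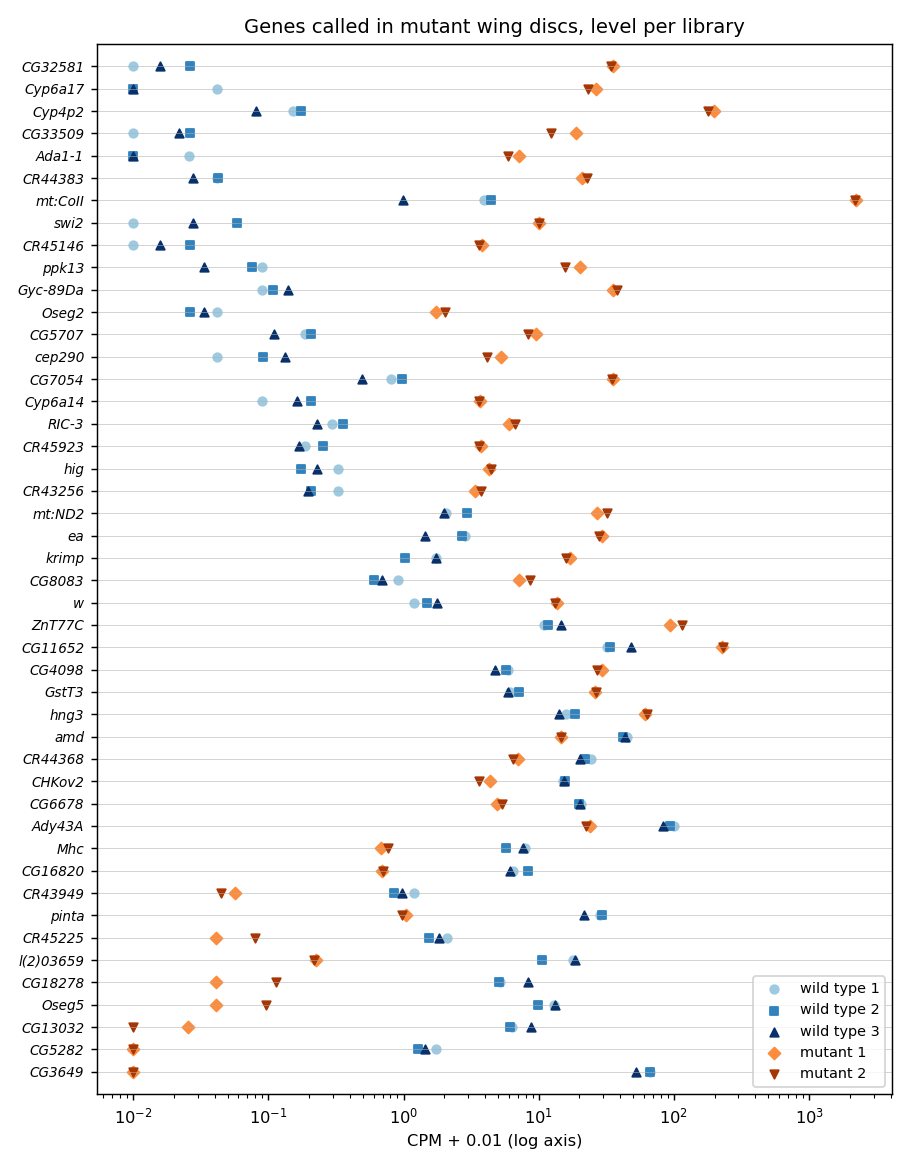
CPM plus 0.01 on a log axis for the 46 called genes in each wing disc library, ordered by log2 fold change. Blue symbols are the 3 wild-type libraries, orange symbols the 2 mutant libraries, and in every row the colours are apart.

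Among the genes that rose were 3 cytochrome P450 genes and a glutathione S-transferase gene, of families known for detoxification. Cyp4p2 (FBgn0033395, 2R:9237512-9239831), the first of the P450 genes, read 0.143, 0.164 and 0.0706 CPM in wild type and 197 and 180 CPM in the mutants. It was near the floor in all wild-type discs and well expressed in both mutant pools, with a log2 fold change of 10.65 ± 0.43 (adjusted p = 0.00521). Cyp6a17 (2R:14873953-14875739), a P450 gene of another family that has been tied to temperature preference in flies, read 0.0319, 0 and 0 CPM in wild type and 26.6 and 23.3 CPM in the mutants (adjusted p = 0.0239). Cyp6a14 (2R:8564187-8567202) read 0.0797, 0.197 and 0.153 CPM against 3.67 and 3.61 CPM, a log2 fold change of 4.65 ± 0.47 (adjusted p = 0.0396). The 3 genes had no overlap between genotypes and similar values in the 2 mutants.

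Most other P450 genes did not pass. Of 56 P450 genes tested, these 3 rose and 0 fell, with 6 higher and 5 lower at an unadjusted p under 0.05, and DESeq2 called 6 higher and 3 lower. The family median was -0.43 on the log2 scale, against -0.03 over all genes tested, and 36 of the 56 had a value below 0. In 13 (23.2%) both mutants lay below the wild type, against 11.7% of all tested genes, and in 10 (17.9%) above, against 14.4%. Cyp4p1, which neighbours Cyp4p2, read 0.59, 4.96 and 0.882 CPM against 31.1 and 28.9 CPM (log2 fold change 3.82 ± 0.99, adjusted p = 0.285), and Cyp9c1 read 45.0, 41.8 and 37.3 CPM against 74.4 and 69.99 CPM (0.80 ± 0.16, adjusted p = 0.189). These 2, both higher in the mutants, were picked after their values were seen and do not stand for the family. Of 27 glutathione S-transferases 1 rose and 0 fell. It was GstT3 (X:20467455-20469796), of the theta class of these conjugating enzymes, with 6.14, 7.16 and 5.95 CPM against 26.0 and 26.5 CPM (2.03 ± 0.16, adjusted p = 0.0239).

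Gyc-89Da (3R:16472601-16475477), an atypical soluble guanylyl cyclase subunit that is known for oxygen sensing in neurons, read 0.0797, 0.0983 and 0.129 CPM in wild type and 35.5 and 38.1 CPM in the mutants (8.40 ± 0.26, adjusted p = 0.00362). The pickpocket family gene ppk13 (2L:21086790-21088751), of the degenerin and epithelial sodium channel class, read 0.0797, 0.0655 and 0.0235 CPM against 20.3 and 15.5 CPM (8.44 ± 0.55, adjusted p = 0.0189). Its neighbour CG33509, which lies 283 bp away, read 0, 0.0164 and 0.0118 CPM against 18.8 and 12.3 CPM (adjusted p = 0.0177). In all 3 the wild-type libraries lay close to the floor and both mutants far above it.

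Others rose from a measurable level. ZnT77C (3L:20484293-20494921), a zinc transporter gene, read 10.9, 11.6 and 14.7 CPM against 92.9 and 114 CPM (3.06 ± 0.21, adjusted p = 0.0189). The serine protease gene ea (easter), which acts in dorsoventral patterning of the embryo upstream of Toll, read 2.84, 2.70 and 1.42 CPM against 29.5 and 28.1 CPM (3.64 ± 0.35, adjusted p = 0.0375). RIC-3, named for a chaperone of acetylcholine receptors, read 0.287, 0.344 and 0.218 CPM against 5.98 and 6.69 CPM (4.49 ± 0.34, adjusted p = 0.0233). In these the 2 mutants were again close to each other, and the wild-type spread was small beside the difference. CG11652, the gene of highest wild-type level among the protein-coding nuclear genes that rose, read 31.9, 33.8 and 48.1 CPM against 226 and 232 CPM (2.59 ± 0.24, adjusted p = 0.0338).

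The largest rise by fitted value was that of CG32581 (X:15796908-15799162), with 0, 1 and 1 counts in wild type and 2273 and 1994 in the mutants (adjusted p = 0.004). The pseudogene CR44383 ends 10 bp from it and read 0.0319, 0.0328 and 0.0176 CPM against 20.8 and 22.6 CPM (9.69 ± 0.33, adjusted p = 0.00362). Ada1-1, 1 of 2 fly genes for a subunit of the SAGA histone acetyltransferase complex, read 0.0159, 0 and 0 CPM against 7.09 and 5.91 CPM (adjusted p = 0.0338). The gene swi2 (2R:17690275-17695353) read 0, 0.0491 and 0.0176 CPM against 10.03 and 10.06 CPM (8.80 ± 0.81, adjusted p = 0.0338). The other genes that rose were CG4098, CG5707, CG7054, CG8083, hng3, hig, cep290, Oseg2, krimp, w, the noncoding CR43256, CR45146 and CR45923, and the 2 mitochondrial genes described below.

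Some called genes lay near each other. Within 50 kb of each other there were 6 pairs of called genes, and in 5 of them both genes changed in the same direction. They were CG32581 with CR44383, CG33509 with ppk13, swi2 with CR45146, Cyp4p2 with hig, and CG5707 with Oseg2, which lie 37424 bp apart. Cyp4p2 lies inside hig on the opposite strand, and hig, which encodes a protein of the synaptic cleft, read 0.319, 0.164 and 0.218 CPM against 4.29 and 4.46 CPM. In the sixth pair, 40055 bp apart with 5 other tested genes between, pinta fell and CG7054 rose. No such count was made over all tested genes, so the pairs do not show that called genes cluster. By chromosome arm the called share ran from 0.249% of 1609 genes on X to 0.801% of 1997 genes on 2R, leaving aside the small chromosome 4, with 0 of 84 genes called by the quasi-likelihood test and 6 by DESeq2.

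The genes that fell included some that were not detected in the mutants. CG3649 (2R:22845977-22847911) had 4197, 4049 and 8943 counts in wild type and 0 and 0 in the mutants, and was at least 2528-fold lower when the floor of 3 counts is taken over the mutant group (adjusted p = 0.0106). CG5282 had 109, 78 and 243 counts against 0 and 0, at least 60.5-fold lower on the same floor (adjusted p = 0.0434). CG13032 read 6.36, 6.08 and 8.80 CPM against 0.0155 and 0 CPM (adjusted p = 0.0259). In all 3 every wild-type library had a clear level.

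Among named genes, pinta (3R:22423316-22424929), a retinoid-binding protein gene needed for visual pigment in the eye, read 28.6, 29.4 and 21.7 CPM in wild type and 1.04 and 0.968 CPM in the mutants (-4.72 ± 0.25, adjusted p = 0.0106). The ABC transporter gene FBgn0010549 (2R:9390165-9395281) read 17.9, 10.5 and 18.4 CPM against 0.217 and 0.207 CPM (-6.19 ± 0.42, adjusted p = 0.0189). Ady43A, a predicted adenosine kinase gene, read 100.4, 94.1 and 82.6 CPM against 23.7 and 22.4 CPM (-2.0 ± 0.18, adjusted p = 0.0338). The wild-type libraries lay closer together at pinta and Ady43A than at FBgn0010549, where replicate 2 was the lowest. In none of these genes was a wild-type library within 2-fold of a mutant.

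amd, which is related to the dopa decarboxylase gene and acts in the cuticle, read 45.2, 42.0 and 43.2 CPM against 14.6 and 14.7 CPM (-1.57 ± 0.15, adjusted p = 0.0338). CHKov2, a choline-kinase-like gene, read 15.02, 15.5 and 15.5 CPM against 4.37 and 3.58 CPM (-1.95 ± 0.19, adjusted p = 0.037). The wild-type libraries were within a narrow range at both, and these changes were among the smallest that passed. The rest of the genes that fell were CG6678, CG16820, CG18278, Oseg5, Mhc and the noncoding CR43949, CR44368 and CR45225.

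Genes of the cilium appeared on both sides. Oseg5 (2L:20832849-20835840), a component of intraflagellar transport, fell from 12.9, 9.89 and 13.3 CPM to 0.031 and 0.0864 CPM (-7.67 ± 0.52, adjusted p = 0.0189). Oseg2, another component, read 0.0319, 0.0164 and 0.0235 CPM in wild type and 1.73 and 2.01 CPM in the mutants (6.20 ± 0.44, adjusted p = 0.0189). cep290, of the ciliary transition zone, read 0.0319, 0.0819 and 0.123 CPM against 5.25 and 4.11 CPM (5.78 ± 0.60, adjusted p = 0.044). No list of cilium genes was used, and the 3 are named together after their values were seen.

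Transcripts of the mitochondrial genome stood higher in the mutant discs as a group. Its protein-coding genes encode subunits of the respiratory chain and of ATP synthase. Of 13 tested, 2 passed the test, both higher, with 6 higher and 0 lower at an unadjusted p under 0.05, and in 11 of 13 both mutants lay above every wild-type library, where 14.4% of all tested genes do so. DESeq2 called 6, all higher, and the median log2 fold change was 1.57, against -0.03 over all genes. The share of all counts on the mitochondrial genome was 1.75%, 1.81% and 0.559% in wild-type replicates 1 to 3 and 2.83% and 2.69% in the mutants.

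The 2 genes that passed were mt:CoII, a subunit of cytochrome c oxidase, and mt:ND2, a subunit of complex I. mt:CoII read 3.91, 4.39 and 0.976 CPM in wild type and 2233 and 2180 CPM in the mutants (9.49 ± 0.83, adjusted p = 0.0338). mt:ND2 read 2.04, 2.92 and 1.98 CPM against 26.8 and 32.002 CPM (3.67 ± 0.25, adjusted p = 0.0189). Both were low but read in every wild-type library, with 245, 268 and 166 counts at mt:CoII and 128, 178 and 336 at mt:ND2. Levels of the other transcripts of the same genome differed widely in wild-type discs. mt:CoI, also of cytochrome c oxidase, read 254, 275 and 66.9 CPM against 2695 and 2609 CPM (3.74 ± 0.64, adjusted p = 0.138), and mt:ATPase6, of ATP synthase, 50.2, 51.1 and 12.1 CPM against 832 and 810 CPM (4.44 ± 0.68, adjusted p = 0.109). mt:ND6 had no counts in any wild-type library and 0.882 and 1.18 CPM in the mutants (adjusted p = 0.104).

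Not all members were higher by a clear margin. The large ribosomal RNA mt:lrRNA read 15268, 17261 and 4844 CPM against 17732 and 17379 CPM (0.50 ± 0.56), with both mutants only just above the wild type. At mt:ND3 the genotypes overlapped, with 10.5, 17.7 and 1.599 CPM against 12.8 and 12.6 CPM (0.36 ± 0.92). mt:ND4L had the lowest value, with 0.0957, 0.197 and 3.57 CPM against 0.186 and 0.0864 CPM (-3.24 ± 1.87, adjusted p = 0.842), which rests on wild-type replicate 3 alone. Wild-type replicate 3 was the lowest library at all of these genes but mt:ND4L, where it was the highest, and mt:ND6, where all wild-type libraries were at 0. Without mt:CoII the mitochondrial share was 1.75%, 1.81% and 0.559% in wild type and 2.61% and 2.47% in the mutants. Of 41 tested nuclear genes of the respiratory chain, 0 passed the quasi-likelihood test, 0 had an unadjusted p under 0.05, 0 were called by DESeq2 or the likelihood ratio test, and their median was 0.09.

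**Figure D3:**
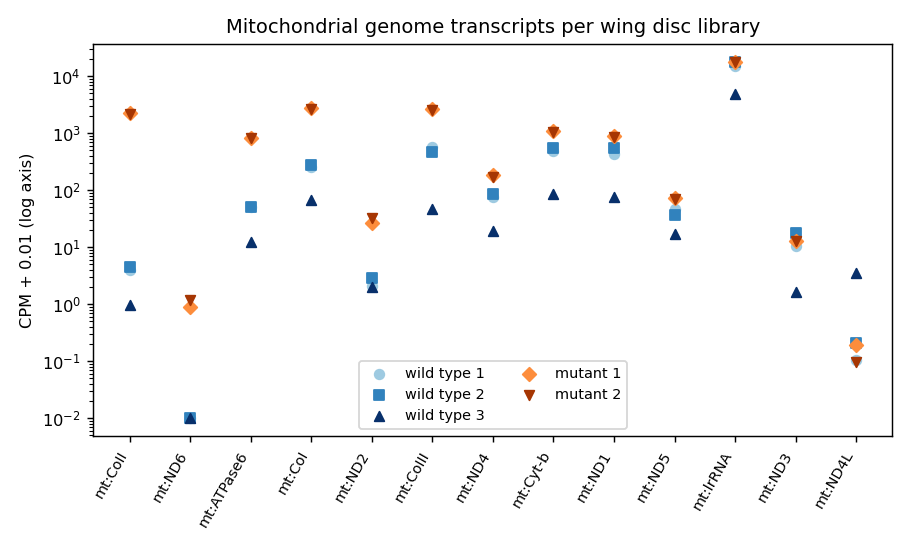
CPM plus 0.01 on a log axis for the 13 tested transcripts of the mitochondrial genome in each wing disc library, ordered by log2 fold change. mt:CoII stands at 0.976 to 4.39 CPM in the 3 wild-type libraries and at 2180 to 2233 CPM in the 2 mutants, while at mt:ND3 and mt:ND4L the genotypes overlap and mt:ND4L is set by wild-type replicate 3, its highest library.

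Genes that pattern the wing showed no call. Across 8 lists of selector genes and of the Hedgehog, Dpp, Wingless, EGFR, Notch and Hippo pathways, 0 of 130 tested genes passed the quasi-likelihood test, 1 had an unadjusted p under 0.05, and DESeq2 and the likelihood ratio test called 0. Their log2 fold changes ran from -1.04 to 0.68, with a median of -0.06. vg read 106, 58.8 and 133 CPM in wild type and 103 and 94.3 CPM in the mutants, a log2 fold change of -0.01 ± 0.37. The dorsal selector ap read 202, 116 and 304 CPM against 197 and 192 CPM, and the Dpp receptor gene tkv, the Notch receptor gene N and Egfr also had ranges that overlapped. Standard errors were large at the longer of these genes, and the 0 calls do not show that their levels were alike: at this spread the much larger difference of Cap-D3 missed the threshold.

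The Enhancer of split genes and other direct Notch targets are short and did set the mutants above the wild type, by a small amount. Of 16 tested, 0 passed the quasi-likelihood test or had an unadjusted p under 0.05, and DESeq2 and the likelihood ratio test called 0. In 13 of 16 (81.2%) both mutants nevertheless lay above all wild-type libraries, against 14.4% of all tested genes. E(spl)mbeta-HLH, a transcriptional repressor gene switched on by Notch, read 187, 184 and 116 CPM in wild type and 218 and 229 CPM in the mutants (0.46 ± 0.26, adjusted p = 0.812). Tom, a Bearded family gene, read 213, 226 and 156 CPM against 245 and 259 CPM (0.35 ± 0.21, adjusted p = 0.887). The sum over the list was 1006, 1017 and 703 CPM against 1176 and 1226 CPM. Its median was 0.37, and 0.29 with the span correction. The genes of the complex lie side by side on 1 chromosome and respond to the same signal, so they are not independent observations.

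Genes of DNA replication lay slightly lower. Of 34 tested, 0 passed the quasi-likelihood test, 2 had an unadjusted p under 0.05, both lower, DESeq2 called 1 lower and the likelihood ratio test 0. In 15 (44.1%) both mutants were below all wild-type libraries, against 11.7% of all tested genes, and in 1 above. The median was -0.19 and stayed at -0.22 with the span correction. The summed level was 3404, 3433 and 3056 CPM in wild-type and 2908 and 2934 CPM in mutant libraries. The helicase subunit gene Mcm7 read 242, 235 and 240 CPM against 213 and 209 CPM (-0.18 ± 0.14). Mcm10, an initiation factor picked after its values were seen, read 44.3, 38.6 and 54.0 CPM against 28.8 and 25.5 CPM (-0.75 ± 0.21, adjusted p = 0.322).

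Genes of mitosis, of DNA damage and of chromosome structure gave few differences. Of 43 mitosis and spindle genes 0 passed, 1 had an unadjusted p under 0.05, and 1, Kmn1, was called by DESeq2, by the likelihood ratio test and with the span correction. Kmn1, of the outer kinetochore, read 31.7, 37.1 and 19.4 CPM against 75.8 and 76.5 CPM (1.38 ± 0.31, adjusted p = 0.221 and, with the span correction, 0.0101). Of 32 genes of DNA damage and repair 0 passed, with 1 higher and 2 lower at an unadjusted p under 0.05. DESeq2 called 1 higher and 1 lower and the likelihood ratio test 0. In 7 (21.9%) both mutants lay below the wild type, against 11.7% of all tested genes, and in 4 (12.5%) above, against 14.4%. The list median was -0.19. The double-strand break repair gene mre11, picked after its values were seen, went the other way. It read 85.3, 83.9 and 79.0 CPM against 124 and 125 CPM (0.59 ± 0.15, adjusted p = 0.269). Across cohesin, Polycomb and trithorax, heterochromatin, insulator, histone variant and RB-E2F genes, 0 of 74 passed, 1 had an unadjusted p under 0.05, DESeq2 and the likelihood ratio test called 0, and the median was -0.14.

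**Figure D4:**
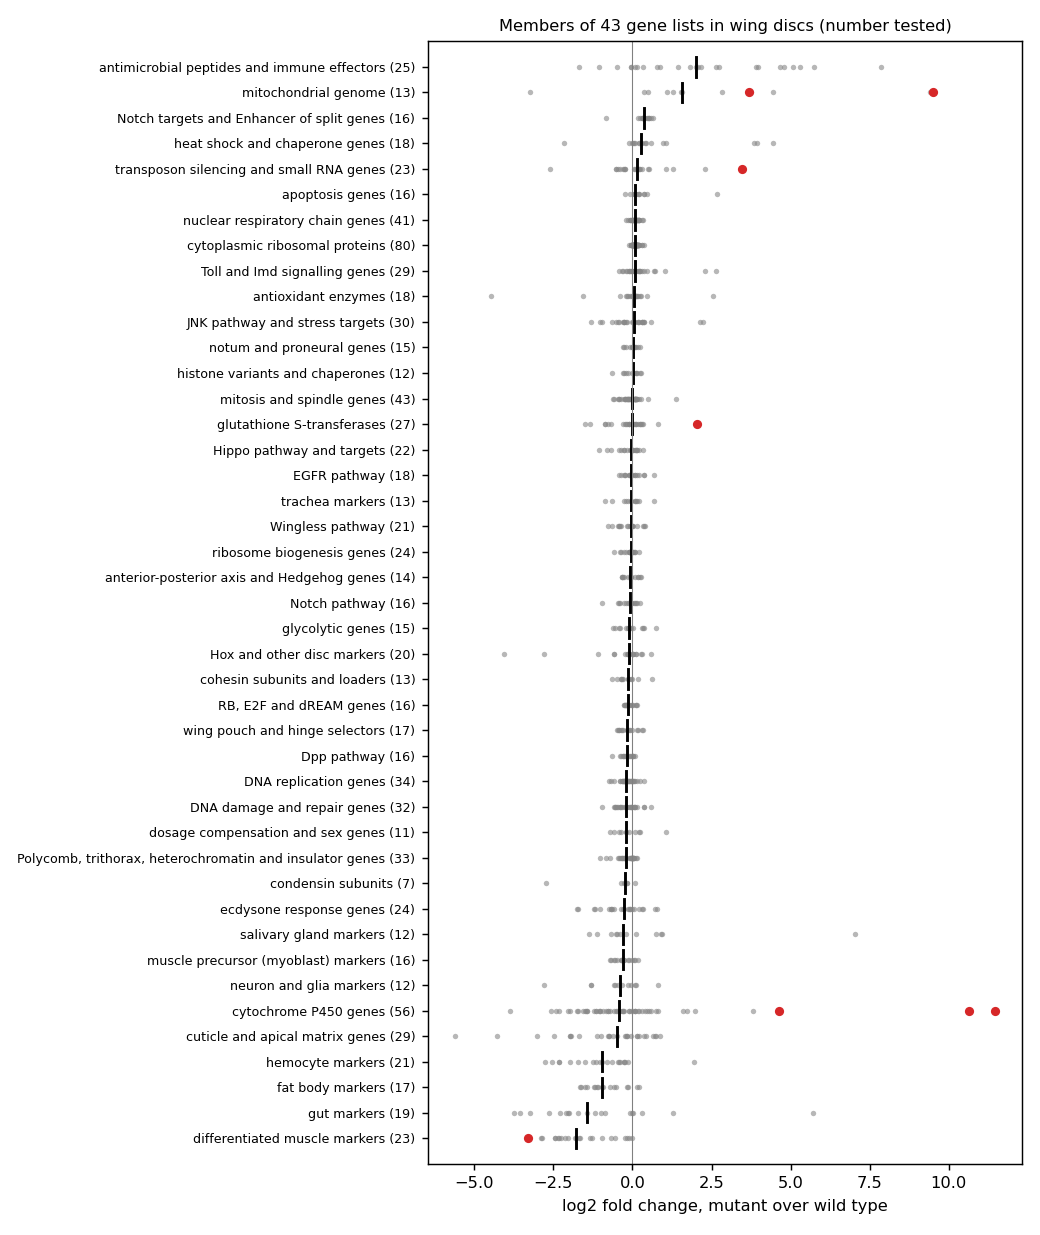
Log2 fold change (mutant over wild type, horizontal axis) of each tested member of 43 gene lists, with black bars at the list medians and red points for members that passed the quasi-likelihood test. The antimicrobial list (median 2.01) and the mitochondrial genome (1.57) lie to the right, differentiated muscle (-1.79) and gut markers (-1.43) to the left, and the patterning lists near 0.

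Genes that silence transposons gave 1 call among 23 tested. krimp (2R:16238103-16240722), a Tudor domain protein of the piRNA pathway, rose from 1.72, 1.02 and 1.73 CPM to 17.1 and 15.9 CPM (3.47 ± 0.31, adjusted p = 0.0338). Of the list 4 were higher and 1 lower at an unadjusted p under 0.05, and DESeq2 called 3 higher and 1 lower. The germline helicase gene vas read 0.112, 0.229 and 0.0706 CPM against 0.635 and 0.692 CPM (adjusted p = 0.281), AGO3 read 1.499, 1.41 and 0.753 CPM against 2.76 and 3.20 CPM (adjusted p = 0.383), and qin read 4.02, 2.62 and 8.60 CPM against 0.975 and 0.674 CPM (adjusted p = 0.269). All 4 act in the piRNA pathway of the germline. They did not move in 1 direction here, and 3 of the 4 did not pass. All but krimp were picked after their values were seen and do not stand for the list. Of the 23 genes, both mutants lay above the wild type in 8 (34.8%), against 14.4% of all tested genes. Both lay below it in 2 (8.7%), against 11.7%.

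Antimicrobial peptide genes stood higher in the mutants at very low levels and with disagreement between the 2 pools. Of 25 tested immune effectors, 0 passed the quasi-likelihood test, 7 were higher and 0 lower at an unadjusted p under 0.05, DESeq2 called 7 higher and the likelihood ratio test 5 higher. In 11 (44%) both mutants lay above the wild type, against 14.4% of all tested genes, and the median was 2.01. Diptericin (Dpt) read 0.0478, 0.524 and 0.00588 CPM in wild type and 12.8 and 1.45 CPM in the mutants (5.29 ± 1.83, adjusted p = 0.444), and Attacin-C (AttC) 0.0319, 0 and 0 CPM against 3.36 and 0.934 CPM (7.87 ± 1.35, adjusted p = 0.138). Mutant replicate 1 was the higher of the mutants at both. The fat body and blood cells are the main sources of these peptides, and the summed level of fat body markers was 2573, 18090 and 3678 CPM in wild-type and 5523 and 2578 CPM in mutant replicates. The part of fat body RNA in these differences was not tested.

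Stress genes gave no call by the quasi-likelihood test. Of 30 genes of the JNK pathway and its stress targets 0 passed, 2 were higher and 1 lower at an unadjusted p under 0.05, and DESeq2 and the likelihood ratio test each called those numbers. The cytokine gene upd2 read 0.271, 0.197 and 0.259 CPM against 0.851 and 1.30 CPM (2.14 ± 0.39, adjusted p = 0.154), and the transcription factor gene Ets21C 1.07, 0.573 and 0.535 CPM against 2.86 and 3.91 CPM (2.23 ± 0.44, adjusted p = 0.189). Of 16 apoptosis genes 0 passed, 2 had an unadjusted p under 0.05 and DESeq2 and the likelihood ratio test each called 1, the caspase gene Damm, with 0.303, 0.229 and 0.182 CPM against 1.55 and 1.45 CPM (2.66 ± 0.38, adjusted p = 0.099). Of 18 heat shock and chaperone genes 0 passed, 5 were higher at an unadjusted p under 0.05, and DESeq2 called 2 and the likelihood ratio test 3. Hsp70Bc, called by DESeq2, read 0.0478, 0.229 and 0.0353 CPM against 2.06 and 1.02 CPM (3.95 ± 0.94, adjusted p = 0.248). Both mutants lay above the wild type in 8 of the JNK genes (26.7%), 8 of the apoptosis genes (50%) and 8 of the heat shock genes (44.4%). Over all tested genes the share was 14.4%. Both lay below the wild type in 1, 0 and 2 of them. The list medians were 0.04, 0.09 and 0.28. With the span correction 1 apoptosis gene was called, higher in the mutant. The genes named here were picked after their values were seen.

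Markers of differentiated muscle, which the disc epithelium lacks, were mostly lower in the mutants. Of 23 tested, 1 fell, 0 rose, 10 were lower and 0 higher at an unadjusted p under 0.05, and DESeq2 called 9 lower and the likelihood ratio test 7 lower. In 15 (65.2%) both mutants lay below the wild type, against 11.7% of all tested genes. The 1 that fell was the myosin heavy chain gene Mhc (2L:16766566-16788766), from 7.84, 5.72 and 7.61 CPM to 0.666 and 0.761 CPM (-3.30 ± 0.32, adjusted p = 0.0338). Tropomyosin 2 (Tm2) read 8.18, 16.1 and 4.37 CPM against 1.502 and 1.124 CPM (-2.86 ± 0.67, adjusted p = 0.243), and paramyosin (Prm) 4.56, 6.63 and 4.16 CPM against 1.07 and 0.795 CPM (-2.45 ± 0.38, adjusted p = 0.109). The list median was -1.79. Of 16 tested markers of muscle precursors, which lie on the notum side of the disc, 0 passed, 0 had an unadjusted p under 0.05, DESeq2 and the likelihood ratio test called 0, and twi read 34.4, 37.1 and 33.6 CPM against 35.6 and 36.8 CPM. In bulk RNA, fewer cells of a type and less RNA per cell cannot be told apart.

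Markers of other tissues that can cling to a disc gave no call by the quasi-likelihood test, though hemocyte and gut markers were mostly lower in the mutants. Of 21 hemocyte markers 0 passed, 1 was higher and 8 lower at an unadjusted p under 0.05, and DESeq2 called 1 higher and 6 lower and the likelihood ratio test 1 and 5. Hml (Hemolectin) read 8.29, 12.9 and 25.1 CPM against 2.38 and 2.16 CPM (-2.76 ± 0.56, adjusted p = 0.191), while NimC1 read 0.351, 1.10 and 0.829 CPM against 2.74 and 3.13 CPM (1.95 ± 0.54, adjusted p = 0.314). Of 19 gut markers 0 passed, 1 was higher and 8 lower at an unadjusted p under 0.05, DESeq2 called 1 and 6 and the likelihood ratio test 1 and 6, and their summed level was 84.9, 80.9 and 73.5 CPM in wild-type and 39.4 and 35.9 CPM in mutant libraries. Both mutants lay below the wild type in 9 hemocyte markers (42.9%) and 9 gut markers (47.4%), against 11.7% of all tested genes. Both lay above it in 1 (4.76%) and 2 (10.5%), against 14.4%. The list medians were -0.96 and -1.43. The gut maltase gene Mal-A1 was at 0 in 4 of the libraries and had 6 counts in wild-type replicate 3. The summed level of salivary gland markers was 194, 713 and 220 CPM in wild-type and 285 and 278 CPM in mutant libraries. Wild-type replicate 2 had the highest sums of fat body and salivary markers and 2.74 CPM of the abdominal Hox gene abd-A, against 0.0319 to 0.153 CPM in the others. How far attached tissue enters the 46 calls was not tested.

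The sexes of the pooled larvae are not given in the labels. The male-specific noncoding RNA roX1, of the dosage compensation complex, read 359, 161 and 349 CPM in wild type and 249 and 140 CPM in the mutants, so its range overlapped between the genotypes. None of the 11 genes of dosage compensation and sex tested passed the quasi-likelihood test, 1 had an unadjusted p under 0.05, and DESeq2 and the likelihood ratio test called 0.

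The last question was whether the changes of the disc were also seen in the salivary gland. Of the 46 genes 38 had enough counts to be tested there. In 22 the gene also passed in the gland in the same direction, and in 1, CG5707, in the opposite direction. Of all 8300 genes tested in both tissues, 807 (9.72%) passed in the gland. The tissue by genotype term, fitted over all 11 libraries, passed for 92 of 10850 genes (0.848%), 34 with the disc change more positive (0.313%) and 58 more negative (0.535%), and for 17 of the 46. Without wild-type wing replicate 1 the 92 became 58, and without mutant replicate 1 or 2 they became 12 and 7. Library kind differs between the tissues, directional in discs and not in glands, but is the same for both genotypes of a tissue.

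Genes called in both tissues in the same direction included the mitochondrial pair and GstT3. mt:CoII had a log2 fold change of 9.49 in the disc and 9.76 in the gland, with a difference of -0.39 that did not pass (adjusted p = 0.846), and GstT3 2.03 in the disc and 2.62 in the gland (difference adjusted p = 0.43). CG11652 stood at 2.59 and 3.11, hng3 at 1.94 and 2.01, and the ABC transporter gene FBgn0010549 at -6.19 and -5.28, and none of their differences passed. Cyp4p2 rose in both but by more in the disc, 10.65 against 7.04 (difference 3.43, adjusted p = 0.0105).

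For swi2, ZnT77C, CHKov2, CG8083 and w the gland value did not pass and the difference between tissues did. The gland libraries were not directional, and swi2 overlaps HPS4 and ZnT77C overlaps ND-39 on the opposite strand, so in the glands their reads and those of the overlapping genes cannot be told apart where they overlap. swi2 was at 1.38 to 2.82 CPM in all 6 gland libraries, with a log2 fold change of -0.03 there against 8.80 in the disc (difference 8.63, adjusted p = 0.00475). ZnT77C had 0.07 in the gland and 3.06 in the disc (difference 2.83, adjusted p = 0.00712). CHKov2 read 8.36 to 10.5 CPM in wild-type glands and 8.10 to 8.94 CPM in mutant glands, against the fall in discs (difference -1.94, adjusted p = 0.00824). The gene w, an eye pigment transporter gene that transposon insertions often carry as a visible marker, read 1.18, 1.49 and 1.76 CPM in wild-type discs and 13.7 and 13.2 CPM in mutant discs (3.18 ± 0.26, adjusted p = 0.0259) and had a difference between tissues of 3.45 (adjusted p = 0.0107). It overlaps kirre on the opposite strand.

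CG5707 changed in opposite directions in the 2 tissues. It read 1.71, 3.87 and 1.41 CPM in wild-type glands and 0.378, 0.207 and 0.216 CPM in mutant glands (-3.12, adjusted p = 0.0188), and in discs rose from 0.175, 0.197 and 0.0999 CPM to 9.60 and 8.30 CPM (5.86 ± 0.41, adjusted p = 0.0189). The difference was 8.82 (adjusted p = 0.00154). Its neighbour Oseg2 had -1.25 in the gland, which did not pass (adjusted p = 0.134), and 6.20 in the disc, a difference of 7.26 (adjusted p = 0.00475). Cap-D3 itself fell by more in the gland (-6.33) than in the disc (-2.75), with a difference of 3.45 ± 0.47 (adjusted p = 0.0122).

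**Figure D5:**
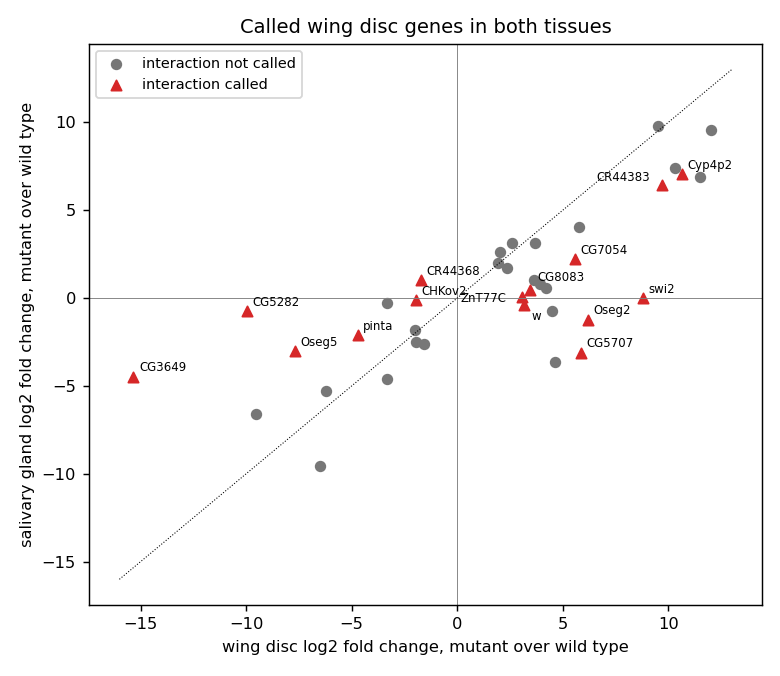
Log2 fold change in the wing disc (horizontal axis) and in the salivary gland (vertical axis) for the 38 called wing disc genes that were tested in both tissues, mutant over wild type, with the line of equal change dotted. Red triangles mark the genes whose difference between tissues passed its own test, among them swi2 at 8.80 and -0.03 and CG5707 at 5.86 and -3.12.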

How the data were processed

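RNA from wing discs was read as 50 bp paired ends in directional libraries, per the labels' protocols. The authors deposited a table of raw counts for each gene in 11 libraries, on build BDGP6. Trim Galore 0.3.3, TopHat2 2.0.8b, BWA, HTSeq 0.6.1, Picard 1.119 and FastQC 0.11.3 appear in the submitters' processing notes, and the sources used here do not give their roles, the strand setting or the treatment of shared reads. The table has 16034 entries, 11021 with a symbol. A further 4841 were named by position and 176 stayed unnamed, and entries without a symbol held 0.0121% to 0.0278% of wing counts. Per the file headers, the authors' deposited comparison of wing discs gives for each gene a log2 ratio of the genotypes, the log2 of mean CPM, a likelihood ratio score, and a p-value with its false discovery rate.

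Counts of the 5 wing libraries were fitted with edgeR 4.0.16 (limma 3.58.1, R 4.3.3), using trimmed mean of M-values scaling, filterByExpr (minimum count 10, minimum total 15) and the quasi-likelihood F-test (robust, legacy dispersions). Adjusted p-values (Benjamini-Hochberg, over all genes tested) come from it unless another test is named, and genes at 0.05 or less were called. A standard error is the size of the log2 fold change over the root of F. The interaction used all 11 libraries. DESeq2 1.42.0, edgeR's likelihood ratio test, a loess offset on gene span (smoothing span 0.5) and other alternatives are given with their effects in the closing section. The procedure was tested on simulated counts, whose libraries carried no tilt with gene span. There the quasi-likelihood test made 5 false calls, DESeq2 75 and the likelihood ratio test 58. The quasi-likelihood test recovered 0 of 50 genes set to a 2-fold change and 34 of 50 set to a 4-fold change. At 8-fold it recovered 49 of 50, and at 16-fold also 49 of 50. The changed genes were drawn only from genes with ample counts, and the dispersions came from all 11 libraries. Recovery at lower counts was not tested. Limits for counts of 0 cover counting error only.

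The members, the gene lists and the naming rule were chosen with earlier results of these data known. The rule named Cap-D3, vg and w. Next came the called genes with a 2-fold or larger change, no overlap of the ranges and an average of 5 CPM or more in 1 genotype; of these it kept, in each direction, the 4 with the largest change and the 10 with the largest change whose symbol is not a CG or CR number. From a list it took up to 4 called members or, where there was none, the 2 of highest CPM, and likewise the 2 of highest CPM among the shortest and the longest genes. Other genes named were chosen after their values were seen.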

Additional observations from a re-analysis of the deposited data

Results flagged for a closer look

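For 18 of the named genes the effect of the genotype differed between wing disc and salivary gland by the interaction term of edgeR's quasi-likelihood test on all 11 libraries (adjusted p of at most 0.05). The differences below are log2 values, disc change minus gland change.

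Among genes that rose in the disc, the difference was 11.89 for Gyc-89Da, which was at or below the floor in all gland libraries and was not tested there alone. For CR45146 the difference was 8.89. It read only 0.0172 to 0.0727 CPM in the gland libraries and was not tested there alone either. The difference was 8.82 for CG5707, 8.63 for swi2 and 7.26 for Oseg2. It was 3.45 for w, 3.43 for Cyp4p2, 3.22 for CG7054, 3.01 for CR44383, 2.88 for CG8083 and 2.83 for ZnT77C. Among genes that fell in the disc, it was -10.25 for CG3649, -8.60 for CG5282, -4.76 for Oseg5, -2.88 for CR44368, -2.77 for pinta and -1.94 for CHKov2. Cap-D3, whose own call in the disc missed the threshold, had a difference of 3.45, with the fall larger in the gland.

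Fitted values of genes with no counts in a group depend on the prior count, which concerns Gyc-89Da in the gland and CG3649 and CG5282 in the disc. On the opposite strand, swi2 overlaps HPS4, ZnT77C overlaps ND-39, Gyc-89Da overlaps CR46029, w overlaps kirre and Cyp4p2 overlaps hig. CR45146 overlaps rdgBbeta, CG3649 overlaps CG13531, Oseg5 overlaps CG31674, CR44368 overlaps CG18324 and CG8331, and Cap-D3 overlaps CG7277, tomb and the antisense RNA CR44793. The gland libraries were not directional, and the part of such overlaps in the differences was not tested.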

How the results depend on the processing

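No paired analysis was possible because the replicate numbers follow the order of the libraries and the labels pair no wild-type with a mutant sample. The 46 wing calls became 44 with DESeq2's size factors, 47 without a filter on low counts and 51 with a stricter one. They became 583 with DESeq2, 464 with the likelihood ratio test, 77 with edgeR's newer dispersion estimate, 118 with the span correction and 140 when all 11 libraries were fitted together, a fit whose median log2 fold change over all genes was -0.12. The next 3 alternatives were chosen after seeing the data: an exon length correction gave 242 calls, and DESeq2 without wild-type replicate 2 or replicate 3 gave 478 and 593. Leaving out 1 library at a time gave 0 to 45 calls. A lone mutant library is then assumed to vary like the wild-type group. Of the calls, 65.2% were higher in the mutant, against 43.4% with DESeq2, 41.4% with the likelihood ratio test, 76.6% with the newer dispersion estimate and 53.6% in the fit of all libraries. The 92 interaction calls became 616 with DESeq2, and 7 to 129 when 1 wing library was left out. Cap-D3 in wing discs passed the threshold with the span correction (-2.62), DESeq2 (-2.78), the likelihood ratio test (-2.75), all 11 libraries (-2.84), the exon length correction (-2.61) and DESeq2 without wild-type replicate 2 (-2.99) or 3 (-2.46). Without 1 library its value ran from -2.96 to -2.46 and its adjusted p from 0.0544 to 0.888. The only sign change of a value that passed under an alternative was that of Ppn, a matrix gene of the hemocyte list, which was -0.23 and became 0.56 with DESeq2 without wild-type replicate 3. The cause of these shifts was not tested. With 3 against 2 libraries, Cap-D3 missed the threshold at -2.75 ± 0.38, while smaller changes with smaller standard errors passed, such as amd at -1.57 ± 0.15.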
